A study of Mus musculus with 8 samples.

Results

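The genes described here are 9 transcripts that activated macrophages are known for: the EGF family ligands Areg (amphiregulin), Ereg (epiregulin) and Hbegf (heparin-binding EGF-like growth factor), the vasoactive peptide precursor Edn1 (endothelin 1), the stress-induced TGF-beta superfamily hormone Gdf15, the growth factors Igf1, Pdgfa and Pdgfb, and Met, which is not a released factor but the receptor for hepatocyte growth factor. They were taken by symbol from a table of 55801 genes, and all 9 were found, each in 1 row. RNA was measured in peritoneal macrophages that thioglycollate had drawn into the abdominal cavity of male C57BL/6 mice 6 to 8 weeks old. The 4 groups of 2 samples each were vehicle (DMSO, called NC), LPS, C498 and C498+LPS. C498 is a small molecule selected as an inhibitor of JAK/STAT and NFκB signaling, and it was used at 15 µM. Vehicle or C498 was given for 0.5 h, and LPS, the endotoxin that macrophages sense through TLR4, then followed at 100 ng/ml for 4 h in the LPS and C498+LPS groups. How long the NC and C498 samples were kept is not stated, so in the comparisons with LPS and in the interaction a difference in culture time cannot be told apart from LPS. All groups share the thioglycollate treatment and the culture. Neither the labels nor the methods say whether the samples of a group came from separate mice or cultures, so the p-values measure only the spread between these samples, which may be technical.

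Ligands of the EGF family are made as membrane-bound precursors, which the protease ADAM17 cuts with the help of iRhom2 (encoded by Rhbdf2), and the released ligands bind EGFR and related ErbB receptors on epithelial cells, fibroblasts and macrophages themselves. PDGF, IGF1 and HGF act through their own receptor tyrosine kinases on stromal and epithelial cells and are part of what macrophages supply during wound repair. Endothelin 1 constricts vessels, and GDF15 acts on neurons of the hindbrain to reduce appetite and is made by many stressed cells.

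Levels are given as TPM, a unit that corrects for transcript length and gives every sample the same total, so that levels can be compared between genes. The number of reads behind a TPM value is unknown. Changes are differences of log2(TPM + 1) between groups from limma, a linear model fitted over all 8 samples to the 12189 genes whose mean reached 1 TPM, which included all 9. A gene was called where the fold change on that scale was at least 2 and the Benjamini-Hochberg adjusted p over all tested genes was at most 0.05. The added 1 shrinks the changes of weakly expressed genes. In bulk RNA, a change in the number of cells of a type and a change of the RNA per cell cannot be told apart. With 2 samples against 2, an exact two-sided permutation test of a single value cannot give a p below 0.333.

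All 8 macrophage markers examined were present (Adgre1, Cd68, Csf1r, Itgam, Lyz2, Mertk, Fcgr1 and Cd14), and their summed level went from 20100 to 20590 TPM in NC, 17940 to 18470 TPM in LPS, 15940 to 16080 TPM in C498 and 12420 to 14210 TPM in C498+LPS. Lyz2 and Cd68 made up most of that sum, whereas Cd14, which LPS induces, was highest in C498+LPS (1797 and 1794 TPM against 235.5 and 252 TPM in NC), and Mertk overlapped between all groups. The 6 fibroblast markers moved with C498. Their summed level was 150.3 to 192 TPM in NC and 176 to 201 TPM in LPS but 633 to 750.0 TPM in C498 and 618 to 911 TPM in C498+LPS. Of the 5 tested, 5 were called upregulated in C498 vs NC and 4 in C498+LPS vs LPS, beside 5.64% and 5.39% of all tested genes. Lum, the sixth, stayed at or below 0.28 TPM in every sample. The 6 mesothelial markers were at 5.37 to 5.90 TPM in NC, 5.40 to 5.54 TPM in LPS, 16.3 to 22.0 TPM in C498 and 16.5 to 25.9 TPM in C498+LPS. Of the 4 tested, 2 were called upregulated in each of the same comparisons. Krt19 and Upk3b did not exceed 0.28 and 0.60 TPM without C498. They passed the filter only through the C498 groups, so a call of either adds nothing as evidence. Endothelial markers, by contrast, summed to between 19.7 and 32.6 TPM in all 8 samples, and most of it was Vwf (12.5 to 29.1 TPM) and Kdr (1.54 to 3.71 TPM). The other 4 were lower, Pecam1 at 0.20 to 1.25 TPM, Cdh5 at 0.14 to 0.56 TPM apart from 4.37 TPM in C498+LPS replicate 2, and Tek and Cldn5 at or below 0.06 TPM. The neutrophil markers were at 82.3 to 134.7 TPM in NC, 97.3 to 123.0 TPM in LPS, 52.6 to 55.8 TPM in C498 and 72.2 to 81.6 TPM in C498+LPS. Most of that sum was S100a8 (48.9 to 128.3 TPM). S100a9 did not exceed 0.86 TPM and Mpo 0.05 TPM. Elane was listed at 0, and so was Ly6g apart from 2.62 TPM in C498 replicate 2. Of the 3 neutrophil markers tested, 1 was called downregulated in each C498 comparison, beside 1.36% and 2.18% of all tested genes. Innate lymphoid markers summed to between 75.6 and 168.1 TPM, most of it Il7r (73.5 to 162.6 TPM), with Gata3 at or below 0.90 TPM. Of the 2 tested, 1 was called upregulated in C498 vs NC, beside 5.64% of all tested genes. Markers of mast cells, eosinophils, T cells, B cells and platelets summed to at most 22.5 TPM in any sample. These values stand beside every C498 comparison given here, and their part in the results was not tested.

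**Figure D1:**
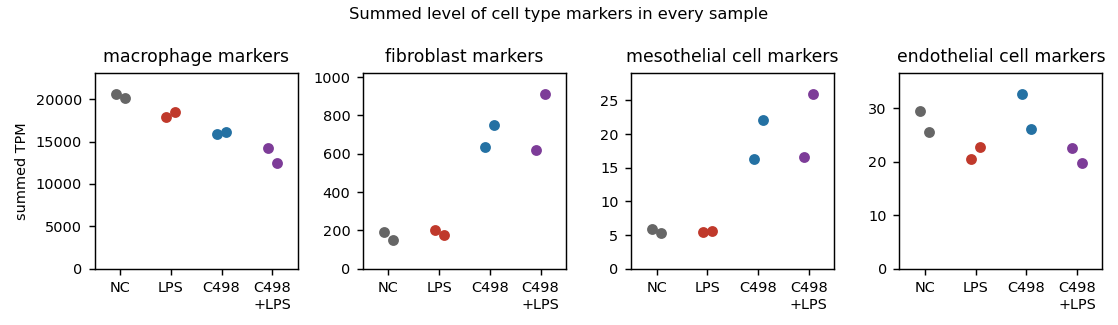
Summed TPM of the macrophage, fibroblast, mesothelial and endothelial marker lists (vertical axes, TPM from 0) in each of the 8 samples, by group on the horizontal axis, with 1 dot per sample. Both C498 groups lie above both groups without C498 for fibroblast markers (618 to 911 against 150.3 to 201 TPM) and mesothelial markers, while the macrophage sum, mostly Lyz2 and Cd68, is lowest in C498+LPS.

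Among the 9 genes, LPS raised Hbegf, Edn1, Gdf15 and Met and lowered Pdgfa in vehicle-treated cells (LPS vs NC). Over all tested genes 5.55% were called upregulated and 6.68% downregulated in that comparison (677 and 814 genes, or 853 and 530 with each sample centred on its median gene). C498 alone raised Ereg, Hbegf, Edn1 and Gdf15 (C498 vs NC) and lowered none of the 9 past the thresholds, where 5.64% of all tested genes passed upward and 1.36% downward (687 and 166 genes, or 565 and 269 with centring). With C498 on top of LPS (C498+LPS vs LPS), 5 of the 9 genes were called upregulated (Areg, Ereg, Hbegf, Gdf15 and Pdgfa) and 0 downregulated, against 5.39% and 2.18% of all tested genes. Areg and Ereg entered that test only through C498+LPS, the group in which they are highest, so their calls add nothing to the count as evidence, and with a minimum mean of 5 TPM it was 3. It was also 3 without C498+LPS replicate 2 or LPS replicate 2. With LPS on top of C498 (C498+LPS vs C498) the called genes were Ereg and Edn1, both upregulated, against 2.52% of all genes upregulated and 3.13% downregulated (307 and 381 genes, or 434 and 196 with centring), and the same limit holds for Ereg there. Edn1 was left as the only call without either C498 sample, C498+LPS replicate 2 or LPS replicate 2. These counts depend on single samples: C498 vs NC gave 274 and 71 without C498 replicate 1, 309 and 81 without C498 replicate 2, 1186 and 195 without NC replicate 1 and 425 and 215 without NC replicate 2. C498+LPS vs LPS gave 300 and 170 without LPS replicate 2, 340 and 148 without LPS replicate 1 and 333 and 141 without C498+LPS replicate 2, against 657 and 266 with all samples, and LPS on top of C498 gave 183 and 183 or 181 and 188 without C498 replicate 1 or 2 and 247 and 202 without C498+LPS replicate 2. The median gene moved by -0.17 (LPS vs NC) and -0.18 (with LPS on top of C498) on the log2 scale. The 9 genes were chosen with earlier results of these data known, so these counts describe them and are not evidence about the class. Comparisons that share a group are not independent of each other: each of the 4 groups enters 2 of the 4 comparisons, and all 4 enter the interaction.

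**Figure D2:**
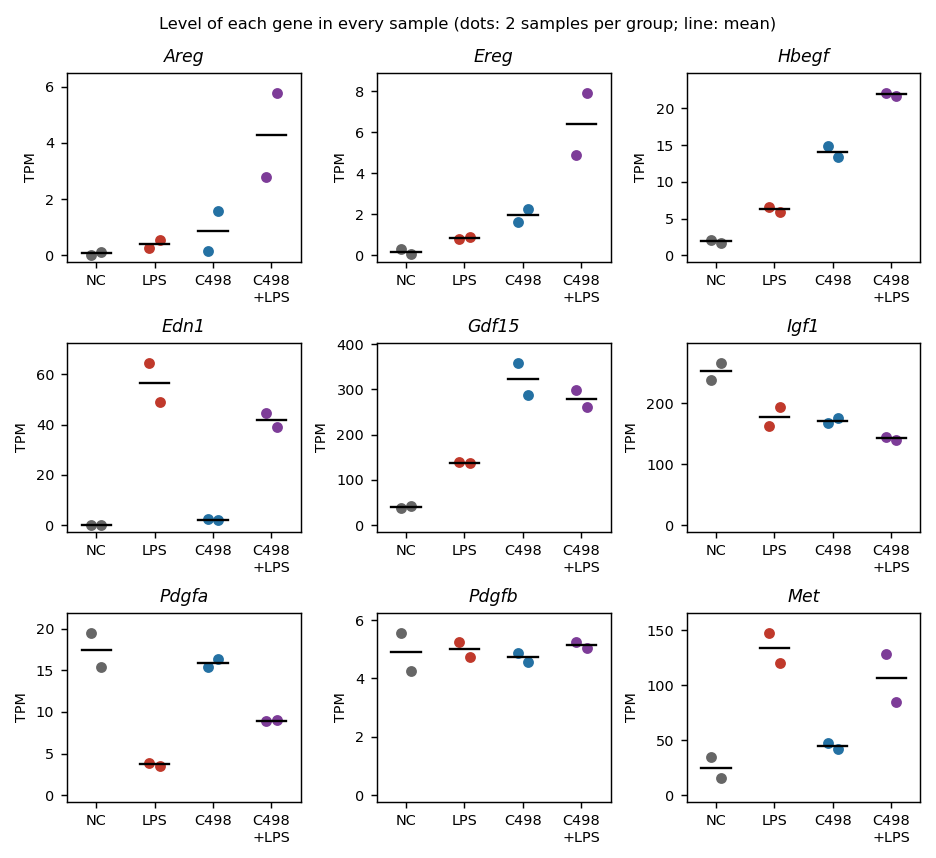
TPM level of each of the 9 genes (vertical axes, TPM) in every sample, by group on the horizontal axis. Dots are the 2 samples of a group and the line is their mean. Hbegf steps up from NC (mean 1.89 TPM) over LPS and C498 to C498+LPS (mean 21.9 TPM), Edn1 and Met are highest in LPS, Pdgfa is lowest in LPS, and Pdgfb lies between 4.27 and 5.57 TPM throughout.

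Hbegf, whose product activates EGFR and ErbB4 and also serves as the receptor for diphtheria toxin, had the highest level of the 3 EGF family ligands in every sample. It was at 2.05 and 1.73 TPM in NC, 6.57 and 5.93 TPM in LPS, 14.8 and 13.4 TPM in C498, and 22.1 and 21.7 TPM in C498+LPS. The 4 groups did not overlap and kept this order. The mean rose 3.31-fold with LPS (log2 change 1.33, standard error 0.153, adjusted p = 0.00106 by limma) and 7.48-fold with C498 alone (log2 change 2.39, adjusted p = 0.000228). On top of LPS, C498 gave a further 3.51-fold rise (log2 change 1.66, adjusted p = 0.00112). On top of C498, LPS gave a ratio of means of 1.55, and the log2 change of 0.60 had an adjusted p of 0.0391 but was under 2-fold. The LPS effect with C498 minus that without it was -0.73 on the log2 scale (95% confidence interval -1.24 to -0.22) and did not pass the test across all genes (limma, adjusted p = 0.290).

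Ereg, a ligand of EGFR and ErbB4, followed the same order at a lower level. It was at 0.30 and 0.06 TPM in NC, 0.78 and 0.90 TPM in LPS, 1.63 and 2.27 TPM in C498, and 4.90 and 7.92 TPM in C498+LPS, again without overlap between groups. The change with LPS alone was 0.65 (95% confidence interval -0.02 to 1.32, limma adjusted p = 0.132), and with a pseudocount of 0.1 TPM in place of 1 it was called at 1.89 (adjusted p = 0.0391). C498 alone gave 1.32 (adjusted p = 0.0239), and C498+LPS vs LPS gave 1.98 (standard error 0.285, adjusted p = 0.00472). Adding LPS to C498 raised the mean 3.29-fold (log2 change 1.31, adjusted p = 0.0239). The calls in C498 vs NC and C498+LPS vs C498 were lost when either C498 sample was left out (limma adjusted p from 0.0803 to 0.126). The former was also lost without NC replicate 2 (0.0747), and the latter without C498+LPS replicate 2 (1.01, adjusted p = 0.1004) or LPS replicate 2 (0.05001). Both were lost with no filter on low values (0.0591 and 0.0618) and with only the groups compared (0.0534 and 0.0513), and the latter also with a pseudocount of 0.1 TPM (0.0874).

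Areg, a ligand of EGFR that takes part in epithelial repair and in type 2 immunity, was close to the limit of detection outside 1 group. Its level was listed at 0 and at 0.13 TPM in NC, and was 0.27 and 0.56 TPM in LPS and 0.15 and 1.58 TPM in C498. In C498+LPS it was 2.79 and 5.79 TPM, above the other 6 samples. The C498 samples lay on both sides of the LPS samples and above the NC samples, replicate 1 only just. It was called in C498+LPS vs LPS with a difference of 1.85 on the log2 scale (standard error 0.452, adjusted p = 0.0323 by limma). The call was lost without C498+LPS replicate 2 (adjusted p = 0.176), LPS replicate 1 (0.161) or LPS replicate 2 (0.117), and with a pseudocount of 0.1 TPM (0.0878) or no filter on low values (0.0778). Its change was 0.41 in LPS vs NC (adjusted p = 0.548), 0.70 in C498 vs NC (adjusted p = 0.330) and 1.56 in C498+LPS vs C498 (adjusted p = 0.0577). Areg and Ereg had a mean TPM of 0.448 and 0.990 over the 6 samples other than C498+LPS, so both entered the test only through the group in which they are highest. In both C498 groups the replicate with more Areg and Ereg RNA was also the one with more fibroblast marker RNA: C498+LPS replicate 2 had a summed fibroblast marker level of 911 TPM and replicate 1 of 618 TPM, and the C498 replicates had 750.0 and 633 TPM in the same order. Hbegf did not follow this, with 21.7 and 22.1 TPM in C498+LPS replicates 2 and 1. In LPS, replicate 2 had more Areg and Ereg RNA but the lower fibroblast marker sum (176 against 201 TPM). In NC, replicate 1 had the higher sum (192 against 150.3 TPM), with more Ereg but less Areg RNA. A link between these levels and the fibroblast markers was not tested.

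Areg and Ereg are neighbours on chromosome 5 (GENCODE M21 on GRCm38, 91139599 to 91148432 and 91074622 to 91093646, both on the plus strand). The region from 250 bases before to 50 bases after the start of transcription was read from RefSeq for 6 of the 9 genes in 8 windows, since genes can have several starts. It was searched on both strands for the cAMP response element TGACGTCA, the AP-1 site TGANTCA and the TATA box TATAAA, and for the NFκB site and the CArG box of serum response factor by their usual consensus. The Areg window is printed because it was the only 1 of the 8 with a cAMP response element, from position -61 to -54 with the first transcribed base as 0 (capitals), followed by a TATA box from -31 to -26. Of all 32851 such windows, 1.79% hold the cAMP response element and 13.6% the TATA box. An NFκB site, which 8.46% of all windows hold, stood in 1 of the 2 windows of Pdgfa (from -49 to -40), no CArG box (1.63% of all windows) was found in the 8 windows, and the AP-1 sites are given with Igf1 and Met. A match is a run of letters and says nothing about binding in these cells.
Areg promoter (GRCm38.p6, chr5:91139349-91139648, plus strand): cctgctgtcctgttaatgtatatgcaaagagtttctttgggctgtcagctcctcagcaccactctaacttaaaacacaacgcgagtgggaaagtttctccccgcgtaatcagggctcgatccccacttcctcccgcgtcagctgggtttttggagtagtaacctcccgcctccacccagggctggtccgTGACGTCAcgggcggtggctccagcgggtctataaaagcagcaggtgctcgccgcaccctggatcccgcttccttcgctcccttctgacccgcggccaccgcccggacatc

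The other 8 ligands of the EGF family (Egf, Tgfa, Btc, Epgn and Nrg1 to Nrg4) had little RNA. Only Nrg1 reached a mean of 1 TPM, and it was not called in any comparison. Tgfa, another EGFR ligand, was at 0.18 and 0.38 TPM in NC, 0.20 and 0.24 TPM in LPS, 1.17 and 1.00 TPM in C498, and 1.09 and 1.65 TPM in C498+LPS. Of the 14 genes for ErbB receptors, ligand shedding and receptor feedback, 10 were tested. LPS raised Rhbdf2, which carries ADAM17 to the cell surface, from 52.5 to 121.5 TPM on average (2.32-fold, log2 change 1.20, limma adjusted p = 0.000394). Adam17 itself was at 68.3 to 107.7 TPM without C498 and 55.5 to 76.7 TPM with it, and its largest change, -0.61 in C498+LPS vs LPS, had an adjusted p of 0.106.

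With C498 alone 2 of the 10 genes were called upregulated (Egfr and Errfi1), and on top of LPS 3 (also Lrig1), with 0 downregulated, beside 5.64% and 5.39% of all tested genes upregulated and 1.36% and 2.18% downregulated, while the feedback genes Cbl and Spry2 were not called in either. Egfr rose with C498 alone from 0.915 to 3.36 TPM on average (log2 change 1.19, adjusted p = 0.0278 by limma) and from 1.33 to 4.21 TPM in C498+LPS vs LPS (3.15-fold, log2 change 1.16, adjusted p = 0.0279). Errfi1 (Mig6), an EGFR-induced inhibitor of the EGFR kinase, rose 3.499-fold with C498 alone and 5.62-fold in C498+LPS vs LPS, to 17.8 and 22.3 TPM (log2 change 2.21, adjusted p = 0.000985). Lrig1, which promotes degradation of ErbB receptors, was called in C498+LPS vs LPS (log2 change 1.57, adjusted p = 0.00833) but not with C498 alone (0.67, adjusted p = 0.126). The Errfi1 calls held in all 8 fits that left out 1 sample. Each Egfr call held in 4 of the 8 (limma adjusted p up to 0.142 and 0.152) and was lost without either sample of its C498 group, and the Lrig1 call was lost without C498+LPS replicate 2 or LPS replicate 2 (up to 0.0655). The RNA of the other receptors was scarce: Erbb2 was at 0.21 to 2.18 TPM and Erbb3 at 0.38 to 1.11 TPM over all samples, and Erbb4 was listed at 0 in each. Fibroblasts express Egfr, and the fibroblast marker sums given above were also higher in both C498 groups. Their part in the Egfr change was not tested.

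Edn1 had the largest change of the 9 genes. It was at 0.14 and 0.10 TPM in NC, 64.7 and 48.9 TPM in LPS, 2.51 and 2.03 TPM in C498, and 44.7 and 39.2 TPM in C498+LPS. Both LPS groups stood far above both groups without LPS, and within the latter C498 was above NC. The log2 change was 5.68 in LPS vs NC (standard error 0.187, limma adjusted p = 4.24e-06), 1.54 in C498 vs NC (adjusted p = 0.00299) and 3.72 in C498+LPS vs C498 (adjusted p = 7.13e-05), where the mean rose 18.5-fold. For C498+LPS vs LPS the ratio of means was 0.739 and the log2 change -0.42 (95% confidence interval -0.86 to 0.02, adjusted p = 0.182), although the samples did not overlap. The LPS response was smaller with C498 by 1.96 on the log2 scale, the value being -1.96 (95% confidence interval -2.58 to -1.34, limma adjusted p = 0.0383), against 0.394% of all tested genes called in that direction (48 genes, and 9 to 64 without 1 sample) and 0.0738% in the other (9 genes, and 0 to 28 without 1 sample). Without C498+LPS replicate 1 or 2 the balance turned, with 10 and 13 genes called in this direction and 13 and 19 in the other. The adjusted p for Edn1 was 0.0711 without a variance trend and 0.0935 with no filter. Its call did not hold when any 1 of the 8 samples was left out (adjusted p 0.0559 to 0.224), and since NC is near 0 its size depends on the value added before the logarithm. In the LPS samples, where Edn1 was highest, the endothelial markers were at 0.29 and 0.54 TPM (Pecam1), 0.43 and 0.56 TPM (Cdh5), 3.71 and 2.57 TPM (Kdr) and 16.1 and 19.1 TPM (Vwf), with Tek and Cldn5 listed at 0, and their part in the Edn1 level was not tested.

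The rest of the endothelin pathway was small in these cells. Ednrb, a receptor that also clears endothelin, was at 12.1 and 7.26 TPM in NC and 9.63 and 8.70 TPM in C498, and it fell with LPS to 3.89 and 3.65 TPM (log2 change -1.13, adjusted p = 0.0140 by limma) and in C498+LPS vs C498 to 3.48 and 2.71 TPM (log2 change -1.32, adjusted p = 0.0145). The former call was lost without either LPS sample or NC replicate 1 (adjusted p up to 0.0831), with centring and with quantile normalization, and the latter without any 1 of the 4 samples compared (up to 0.1096). Ednra did not exceed 0.32 TPM, and Edn2, Edn3 and Ece2 did not exceed 0.16 TPM. Ece1, which cuts the precursor to the active peptide, lay between 5.15 and 11.2 TPM and was not called in any comparison.

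Gdf15 was the gene with the highest mean level of the 9 at 195.4 TPM, above 93.95% of the tested genes. It was at 37.4 and 41.4 TPM in NC, 138.8 and 137.5 TPM in LPS, 359 and 289 TPM in C498, and 299 and 261 TPM in C498+LPS. NC and LPS stood apart from each other and from both C498 groups, and the C498 groups overlapped. LPS raised the mean 3.51-fold (log2 change 1.79, standard error 0.128, limma adjusted p = 0.000129) and C498 alone 8.22-fold (log2 change 3.001, adjusted p = 3.94e-05). C498 added to LPS raised the mean 2.03-fold, and the log2 change of 1.01 (adjusted p = 0.00303) lay at the fold threshold, which it missed with samples centred on their median gene (0.93) and without C498+LPS replicate 1 (0.91). LPS on top of C498 gave -0.21 (95% confidence interval -0.51 to 0.10, adjusted p = 0.318), which centring turned to 0.0094. The LPS response differed between cells without and with C498, by -1.99 on the log2 scale (95% confidence interval -2.42 to -1.56, limma adjusted p = 0.0128). Without LPS replicate 1 or LPS replicate 2 the adjusted p of this difference was 0.0891 or 0.0611, with values of -1.984 and -1.998, and without a variance trend it was 0.0566.

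Of the 13 other genes in the list of GDF15 and TGF-beta superfamily ligands, 9 were tested. Inhba, which encodes the activin A subunit, was the only other gene of this list with a called interaction: it was at 7.45 and 4.68 TPM in NC, 102.9 and 71.4 TPM in LPS, 113.3 and 90.1 TPM in C498, and 209.9 and 138.4 TPM in C498+LPS. Its mean rose 14.4-fold with LPS and 16.8-fold with C498, and its LPS response was smaller with C498 by a log2 difference of -2.90 (limma adjusted p = 0.0411). That interaction call was lost in all 8 fits that left out 1 sample (-3.20 to -2.60, adjusted p 0.05004 to 0.257), with no filter and without a variance trend, whereas the calls with LPS alone and C498 alone held in all 8. Bmp1, a protease that processes procollagen, rose 3.54-fold with C498 alone and 3.48-fold in C498+LPS vs LPS. Furin, the protease that matures pro-GDF15 and many other precursors, was at 52.3 and 66.2 TPM in NC and 85.5 to 141.1 TPM in the other 6 samples, with log2 changes of 0.65 in LPS vs NC (adjusted p = 0.0197) and 0.68 in C498 vs NC (adjusted p = 0.0287), both under 2-fold. Gfral, the neuronal receptor of GDF15, was listed at 0 in every sample.

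Pdgfa, a mitogen for mesenchymal cells, moved the other way with LPS. It was at 19.5 and 15.3 TPM in NC, 3.92 and 3.49 TPM in LPS, 15.4 and 16.4 TPM in C498, and 8.92 and 9.02 TPM in C498+LPS. NC and C498 overlapped, LPS was lowest, and C498+LPS lay between. The log2 change was -1.96 in LPS vs NC (standard error 0.162, limma adjusted p = 0.000223) and -0.12 in C498 vs NC (95% confidence interval -0.50 to 0.26, adjusted p = 0.658), and the latter was 0.048 without NC replicate 1. C498 added to LPS raised the mean 2.42-fold (log2 change 1.08, adjusted p = 0.00556), while in C498+LPS vs C498 the ratio was 0.564 (log2 change -0.76, adjusted p = 0.0220), under 2-fold. The call in C498+LPS vs LPS was lost with quantile normalization (0.94, adjusted p = 0.00275), without C498+LPS replicate 2 (adjusted p = 0.0512) and without LPS replicate 2 (adjusted p = 0.0561). The difference between the LPS responses was 1.20 (95% confidence interval 0.66 to 1.74) and did not pass at an adjusted p of 0.0989, whereas it passed with centring (0.0387) and with quantile normalization (0.0417).

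Pdgfb, which shares the PDGF receptors with Pdgfa, did not follow it. It was at 5.57 and 4.27 TPM in NC, 5.25 and 4.75 TPM in LPS, 4.89 and 4.55 TPM in C498, and 5.24 and 5.05 TPM in C498+LPS, and the 2 NC samples spanned the values of the other 6. Its log2 changes lay between -0.04 and 0.10, and their 95% confidence intervals all lay between -0.47 and 0.54. Other scaling or the loss of 1 sample turned the sign of 3 of these 4 changes, none of which was called.

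**Figure D3:**
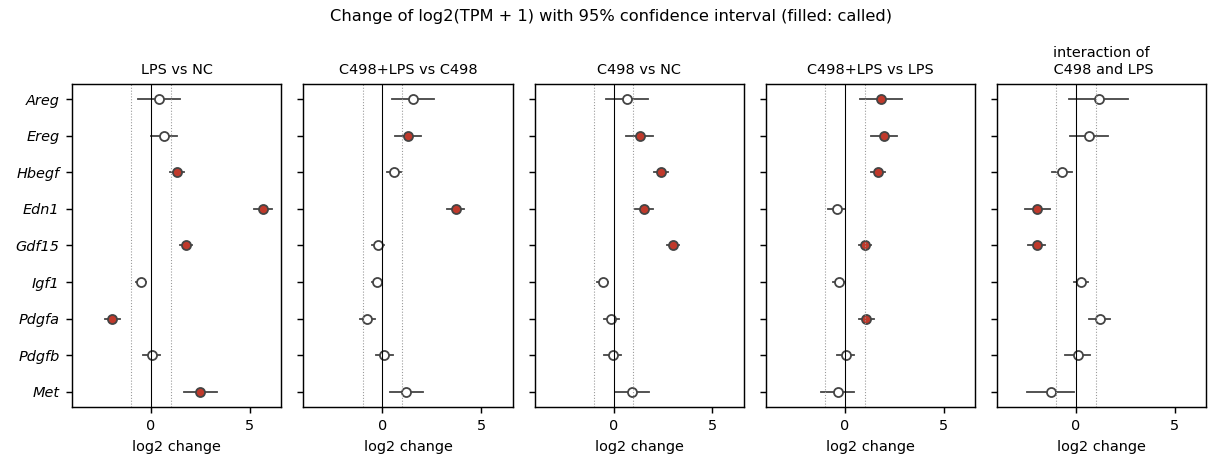
Change of log2(TPM + 1) (horizontal axes) of each of the 9 genes, with 1 panel for each of the 4 comparisons and 1 for the interaction, which is the LPS effect with C498 minus that without. Points are limma estimates, lines 95% confidence intervals, filled points called genes, and dotted lines a 2-fold change. Hbegf, Ereg and Gdf15 are called in both C498 comparisons, and Edn1 and Gdf15 are called in the interaction.

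Of the 14 other genes of the PDGF and VEGF family 9 were tested. The receptors for the 2 ligands behaved differently from each other. Pdgfrb was at 0.58 and 0.47 TPM in NC, 9.63 and 8.03 TPM in LPS, 1.18 and 1.24 TPM in C498, and 1.97 and 1.62 TPM in C498+LPS, so that only LPS without C498 brought it above 2 TPM. Its log2 change was 2.68 in LPS vs NC (limma adjusted p = 0.000184) and -1.81 in C498+LPS vs LPS (adjusted p = 0.00226), and the LPS responses differed by -2.35 (adjusted p = 0.0310). The interaction call held in 1 of the 8 fits that left out 1 sample, that without NC replicate 1 (-2.47 to -2.23, adjusted p 0.0386 to 0.166), and was lost with no filter, while the other 2 calls held in all 8. Pdgfra, a fibroblast marker that also stands in the marker list, rose with C498 alone from a mean of 7.33 to 21.5 TPM (2.93-fold, adjusted p = 0.0196) and was at 14.8 and 22.7 TPM in C498+LPS. Its call was lost without either C498 sample or NC replicate 2 (adjusted p up to 0.126). Vegfa, the main endothelial growth factor, was at 24.3 and 17.2 TPM in NC, 8.42 and 8.58 TPM in LPS, 145.1 and 143.6 TPM in C498, and 63.8 and 66.6 TPM in C498+LPS. Vegfc, a lymphatic growth factor, was called with C498 alone (1.23) and the coreceptor Nrp2 with LPS alone (1.29), each in 5 of the 8 fits that left out 1 sample (adjusted p up to 0.117 and 0.115). Vegfa fell with LPS without and with C498 (log2 changes -1.17 and -1.13) and rose with C498 without and with LPS (2.76 and 2.80, adjusted p = 0.000149 and 0.000279). The rises held in all 8 fits, whereas the fall was under 2-fold without NC replicate 1 (-0.93) for LPS alone, and with C498 was lost without either C498 sample (adjusted p up to 0.0562). Quantile normalization also ended the former call and centring the latter.

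Igf1, a survival and growth factor that tissue macrophages secrete in quantity, was the member with the highest level in untreated cells. It was at 238 and 266 TPM in NC, 162 and 194 TPM in LPS, 167 and 175 TPM in C498, and 145 and 139 TPM in C498+LPS. NC was highest and C498+LPS lowest, and LPS and C498 overlapped. The ratio of means was 0.705 in LPS vs NC (log2 change -0.51, standard error 0.111, limma adjusted p = 0.0139) and 0.678 in C498 vs NC (log2 change -0.56, adjusted p = 0.0187), both past the p threshold but under 2-fold. In C498+LPS vs LPS the log2 change was -0.32 (adjusted p = 0.0988) and in C498+LPS vs C498 it was -0.27 (adjusted p = 0.149). The change in LPS vs NC was -0.34 with centring (adjusted p = 0.224), -0.64 with quantile normalization (adjusted p = 0.00497) and -0.38 without LPS replicate 1 (adjusted p = 0.0832). Without C498 replicate 1, C498 replicate 2 or NC replicate 2, the adjusted p in C498 vs NC was 0.123, 0.0931 or 0.0670. The RefSeq window of Igf1 is printed because it and Met were the only members read with an AP-1 site, from position -37 to -31 in Igf1 (capitals), a site that 7.81% of all windows hold.
Igf1 promoter (GRCm38.p6, chr10:87860861-87861160, plus strand): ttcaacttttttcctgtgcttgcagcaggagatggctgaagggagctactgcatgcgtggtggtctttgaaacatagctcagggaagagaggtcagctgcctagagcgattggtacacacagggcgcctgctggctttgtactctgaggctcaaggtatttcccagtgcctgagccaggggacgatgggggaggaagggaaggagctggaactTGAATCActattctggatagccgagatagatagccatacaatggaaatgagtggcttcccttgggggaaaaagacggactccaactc

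Of the 14 other genes of the IGF axis 8 were tested, and 4 of them were called upregulated in C498+LPS vs LPS and 0 downregulated, beside 5.39% and 2.18% of all tested genes. Irs2, the adaptor of the insulin and IGF1 receptors in macrophages, rose with C498 alone from 5.38 and 2.73 TPM to 39.2 and 33.3 TPM (8.94-fold, log2 change 2.93, limma adjusted p = 0.00103) and in C498+LPS vs LPS from 1.92 and 1.27 TPM to 21.2 and 17.7 TPM (12.2-fold, log2 change 2.98, adjusted p = 0.00116). The secreted binding proteins were the other 3. Igfbp3 rose 3.09-fold and Igfbp7 3.09-fold with C498 alone, and 4.11-fold and 2.97-fold in C498+LPS vs LPS. Igfbp4 was at 18.0 and 44.1 TPM in C498+LPS against 11.3 and 9.76 TPM in LPS (log2 change 1.35, adjusted p = 0.0466), a call that held in 1 of the 8 fits that left out 1 sample, that without C498+LPS replicate 1 (0.72 to 1.97, adjusted p up to 0.218). The Irs2 and Igfbp7 calls held in all 8, and the Igfbp3 calls in 2 (C498 alone, adjusted p up to 0.1498) and 6 (on top of LPS, up to 0.0816, lost without either LPS sample). The receptor Igf1r lay between 0.80 and 3.63 TPM and was not called in any comparison. Fibroblasts make IGF-binding proteins, and replicate 2, which had the higher fibroblast marker sum in both C498 groups, had more Igfbp3 RNA in both (17.6 against 13.2 TPM in C498, 29.8 against 15.0 TPM in C498+LPS) and more Igfbp4 RNA in C498+LPS but not in C498 (28.6 against 30.7 TPM). In NC and LPS, replicate 2 had the lower fibroblast sum but more Igfbp3 RNA (5.38 against 4.57 TPM and 5.94 against 4.97 TPM). Igfbp4 RNA went with the sum in LPS and against it in NC. A link to the fibroblast markers was not tested.

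Met was at 34.3 and 15.2 TPM in NC, 147.7 and 119.9 TPM in LPS, 47.3 and 41.8 TPM in C498, and 128.3 and 84.5 TPM in C498+LPS. The LPS groups stood above both groups without LPS and overlapped with each other. The mean rose 5.42-fold in LPS vs NC (log2 change 2.49, standard error 0.357, limma adjusted p = 0.00261). The NC samples differed from each other, and leaving out replicate 1 or replicate 2 of NC moved the log2 change to 3.05 or 1.93, called in both cases. In C498+LPS vs C498 the ratio of means was 2.39 (log2 change 1.21) and missed the threshold at an adjusted p of 0.0612, which it passed with centring (0.0187) and quantile normalization (0.0263), and over all alternatives the adjusted p lay between 0.0121 and 0.266. The change was 0.93 in C498 vs NC (adjusted p = 0.124), and 1.49 without NC replicate 1 (adjusted p = 0.0170). It was -0.35 in C498+LPS vs LPS (95% confidence interval -1.19 to 0.49, adjusted p = 0.566). The difference between the LPS responses of -1.28 did not pass (95% confidence interval -2.47 to -0.09, adjusted p = 0.416). The AP-1 site of the RefSeq window lies from position -54 to -48 (capitals).
Met promoter (GRCm38.p6, chr6:17463707-17464006, plus strand): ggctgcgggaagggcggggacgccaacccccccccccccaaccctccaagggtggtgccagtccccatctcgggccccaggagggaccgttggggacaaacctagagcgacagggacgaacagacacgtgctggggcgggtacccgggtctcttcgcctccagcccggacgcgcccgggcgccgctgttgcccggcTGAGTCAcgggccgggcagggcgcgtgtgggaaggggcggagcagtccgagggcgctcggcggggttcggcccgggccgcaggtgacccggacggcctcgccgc

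Hgf, the ligand of MET, fell in the comparison in which Met rose. It was at 4.59 and 2.13 TPM in NC and 0.89 and 0.80 TPM in LPS (log2 change -1.18, limma adjusted p = 0.0331), and at 4.05 and 3.49 TPM in C498 and 1.60 and 0.83 TPM in C498+LPS (log2 change -1.13, adjusted p = 0.0589). The Hgf call held in 3 of the 8 fits that left out 1 sample, those without NC replicate 2 or either C498+LPS sample (-1.60 to -0.76, adjusted p up to 0.133). Spint1, an inhibitor of the proteases that activate pro-HGF, fell in LPS vs NC from 4.81 to 0.595 TPM on average (log2 change -1.86, adjusted p = 0.00256). Plaur, the urokinase receptor, rose 2.01-fold with LPS, at the fold threshold, which it missed without LPS replicate 1 or NC replicate 1 (0.99). Plau (urokinase), at 68.9 to 163.6 TPM, and Mst1r, the MET-related receptor for macrophage-stimulating protein, at 0.77 to 2.74 TPM, were not called in any comparison. Of the 12 other genes of this list 10 were tested, and 0 were called in C498 vs NC or in C498+LPS vs LPS, beside 5.64% and 5.39% of all tested genes upregulated and 1.36% and 2.18% downregulated.

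Across all 8 lists, 97 genes that are not among the 9 were listed and 58 were tested. With C498 alone, 13 were called upregulated and 0 downregulated (5.64% and 1.36% of all tested genes), and with C498 on top of LPS 13 upregulated and 1 (Pdgfrb) downregulated (5.39% and 2.18% of all tested genes). With LPS alone, 7 were called upregulated and 4 downregulated (5.55% and 6.68% of all tested genes). The median log2 change of the 58 genes was 0.63 in C498 vs NC, 0.50 in C498+LPS vs LPS and -0.0020 in LPS vs NC, beside medians of 0.014, 0.0065 and -0.17 over all tested genes. Among other growth factors, the IL-6 family cytokines Lif and Osm were called upregulated in LPS vs NC, C498 vs NC and C498+LPS vs LPS: Osm was at 4.55 and 4.71 TPM in NC, 11.97 and 9.54 TPM in LPS, 40.2 and 36.2 TPM in C498, and 28.4 and 24.6 TPM in C498+LPS, an order that Gdf15 shares. Osm was also called in the interaction (-1.57, limma adjusted p = 0.0412). That call was lost without any 1 sample (-1.72 to -1.42), with centring, with no filter and without a variance trend. Lif was also called in C498+LPS vs C498 (1.22, limma adjusted p = 0.0197). This call was lost with no filter and without any 1 of the 4 samples compared (1.05 to 1.39). The LPS call of Osm missed the fold threshold without LPS replicate 1 (0.90), and the call of Lif on top of LPS was lost without C498+LPS replicate 2 (adjusted p = 0.0519). Ccn2, a matrix protein of fibroblasts, rose 3.40-fold with C498 alone. Of the genes called with C498, Pdgfra, Ccn2 and Bmp1 are genes that fibroblasts express strongly, but Pdgfra is itself in the fibroblast marker list. The other called genes were not sorted by cell type, and the part of fibroblasts in these calls was not tested.

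**Figure D4:**
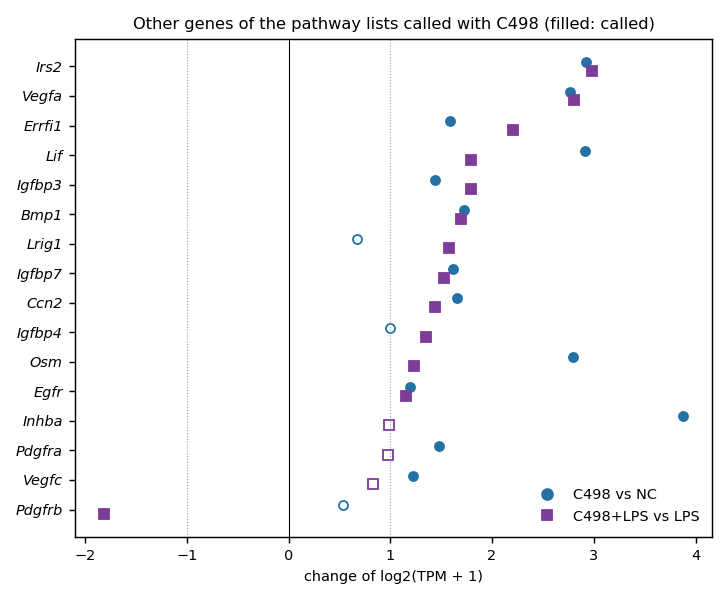
Change of log2(TPM + 1) (horizontal axis) of 16 genes of the 8 lists, other than the 9 described, that were called in C498 vs NC (circles) or C498+LPS vs LPS (squares). Filled symbols are called and dotted lines mark a 2-fold change. All symbols but the square of Pdgfrb lie above 0, and Irs2 and Vegfa have nearly the same change without and with LPS.

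The 9 genes fell along different patterns over the 8 samples. Pearson's r of log2(TPM + 1), over the same 8 libraries and so with shared scaling, was 0.94 between Areg and Ereg, 0.92 between Ereg and Hbegf and 0.96 between Hbegf and Gdf15. It was 0.95 between Edn1 and Met and -0.88 between Edn1 and Pdgfa, and Igf1 ran opposite to Hbegf (-0.94) and to Gdf15 and Ereg (-0.89 and -0.88). Of 11892 other tested genes with a symbol, those closest to Edn1 were Nos2, Il6 and Tnf (r of 0.999, 0.998 and 0.997), which are inflammatory effectors of macrophages, and those closest to Met were Sec24b, Cd274 and St3gal1 (r of 0.996, 0.995 and 0.995). Gdf15 was closest to Junb, Dusp8 and Slc2a1 (r from 0.983 to 0.989), and Hbegf to Eid3, Coq10b and Tubb2b (r of 0.997, 0.996 and 0.996). The genes closest to Ereg were Il33, Krt23 and Gm48228 (r from 0.986 to 0.993), where Il33 is an alarmin of stromal and epithelial cells and Krt23 a keratin listed at 0 in NC. Krt23 was also among those closest to Areg, beside Plekha8 and Cryaa (r from 0.963 to 0.968). Krt23, Gm48228 and Cryaa, like Areg and Ereg, passed the filter only through C498+LPS, where they are highest. Their r with Areg or Ereg is therefore partly built in by the filter. Pdgfa was closest to Prkra, Irak1bp1 and Tec (r from 0.987 to 0.991), Igf1 to Mrps33, Gadd45gip1 and Nme6 (r from 0.993 to 0.994), and Pdgfb, which hardly varied, to Chml, Kctd12 and Zfp160 (r from 0.943 to 0.9754). With 8 samples in 4 groups many genes reach such values, and these r are a description.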

How the data were processed

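The authors made the TPM values from Illumina reads, and the study's methods name fastp for filtering, HISAT2 for alignment, StringTie for assembly and RSEM for quantification. Versions, genome build and annotation are not given in the sources used here. The authors deposited 1 table with TPM per gene and sample, the mean TPM of each group, gene length and annotation. TPM keeps no read count, so the count test of the study (DESeq2) could not be applied and the depth is unknown. Between 17528 and 18975 genes were above 0 in a sample, and r between replicates was 0.962 to 0.981. Columns named NC were matched to the samples titled CTRL, the DMSO group.

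Values were transformed as log2(TPM + 1) and genes averaging 1 TPM or more tested with limma 3.58.1 in R 4.3.3 (1 mean per group, variance trend, 95% confidence intervals from the moderated variances). Ratios of means are given where both means are at least 1 TPM. The steps were tested on simulated data. Named are the 9 genes, list genes called in a comparison, direct partners fixed by name, and the 3 closest genes of each. Of the list genes, 1 is counted but not reported here. Members, lists and markers were chosen with earlier results of these data known, motifs after the values were seen. Alternatives were a pseudocount of 0.1 TPM, no filter, a minimum of 5 TPM, centring, quantile normalization, only the groups compared, no variance trend, a replicate block, no fold threshold, and leaving out each sample.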

Additional observations from a re-analysis of the deposited data

Results flagged for a closer look

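Edn1 and Gdf15 were flagged because their LPS response with C498 differed from that without C498 by the interaction test. The difference on the log2(TPM + 1) scale was -1.96 for Edn1 (limma, adjusted p = 0.0383) and -1.99 for Gdf15 (adjusted p = 0.0128). For Edn1 both responses were upward (5.68 without and 3.72 with C498), and both samples of each LPS group were above both samples of the matching group without LPS. For Gdf15 the response was 1.79 without C498 and -0.21 with it, and the C498 and C498+LPS samples overlapped. Over the alternatives the difference ranged from -3.85 to -1.65 for Edn1 (adjusted p 0.00723 to 0.224) and from -2.15 to -1.83 for Gdf15 (adjusted p 0.00805 to 0.0891). Groups of 2 are too small for a test of outlying samples.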

How the results depend on the processing

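The 5 of the 9 genes called in LPS vs NC stayed 5 in number when any 1 sample was left out. The counts ranged from 3 to 5 in C498 vs NC (4 with all samples), 3 to 5 in C498+LPS vs LPS (5), 1 to 3 in C498+LPS vs C498 (2) and 0 to 1 in the interaction (2), where Edn1 was lost without any 1 sample and Gdf15 without either LPS sample. A minimum of 5 TPM, which drops Areg, Ereg and Pdgfb from the test, left 3 in C498+LPS vs LPS. In C498+LPS vs C498 the count was 1 with a pseudocount of 0.1 TPM or no filter, and 4 with quantile normalization, the replicate block or no fold threshold. In the interaction it was 1 without a filter and 0 without a variance trend. Counts of the other list genes were 7 with quantile normalization or only the groups compared and 20 without a fold threshold in LPS vs NC (11), 8 without a fold threshold in C498+LPS vs C498 (3), and 0 without a filter and 1 without a variance trend in the interaction (3). Leaving out 1 sample gave 8 to 14, 9 to 16 (C498 vs NC), 9 to 15 (C498+LPS vs LPS), 0 to 4 and 0 to 1. Signs turned in 11 refits of single genes. For Pdgfb these were -0.041 (centring) and -0.10 (quantile normalization) in C498+LPS vs LPS, and without 1 sample -0.13 to 0.19 in LPS vs NC, -0.20 to 0.12 in C498 vs NC, -0.025 to 0.096 in C498+LPS vs LPS and -0.082 to 0.24 in the interaction. Pdgfa in C498 vs NC ranged from -0.28 to 0.048 without 1 sample, Gdf15 in C498+LPS vs C498 was 0.0094 with centring, and Ereg in the interaction -0.25 with a pseudocount of 0.1 TPM. The causes were not tested. The replicate numbers do not mark shared mice or days in the labels, and the differences between replicates 1 and 2 correlated at 0.040 to 0.17 between groups; with the replicate block Areg (adjusted p = 0.0229) and Met (0.0121) were also called in C498+LPS vs C498, and no other call among the 9 genes changed. The depth behind the values is unknown, and its effect on the low genes Areg and Ereg was not tested.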
